A study of Mus musculus with 20 samples.

Results

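Microglial RNA of 10-month-old mice was compared between mThy1-α-synuclein transgenic and wild-type animals. The comparison takes 10 of the 20 mice of the study, 5 of each genotype, and all genes whose deposited value reached 10 in at least 5 of these 10 mice. This left 13627 of the 24062 genes of the table. All 10 mice were males aged 10 months on the B6D2F1/J background. The transgenic mice carry the gene for human α-synuclein on the X chromosome under the murine Thy-1 promoter, which drives expression mainly in neurons, and their genotype is labelled HEM. The controls were wild-type littermates without the transgene. Each sample is the microglia fraction from the whole brain of 1 mouse, no mice were pooled, and the mice of this age were handled together from death to extraction. The paper's methods name CD11b magnetic beads for the selection and the sample labels name IBA1 beads. Myelin debris and red blood cells were removed before the selection, and cell counts and the purity of single samples were not recorded.

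Microglia are the resident macrophages of the brain. They survey the tissue with motile processes, take up debris and protein aggregates, and keep a characteristic set of genes switched on that includes Cx3cr1, Sall1 and Siglech. α-Synuclein is a presynaptic protein that aggregates in Parkinson's disease and related disorders, and microglia can take up its aggregates. Beyond cytokine genes, the state of these cells is reflected in the genes for chaperones, glycolysis, the cytoskeleton, adhesion and membrane transport, and these are the groups described here.

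The deposited values are gene counts divided by 1 size factor per mouse, called normalized counts. Reads counted on genes numbered 43710659 to 61215625 in the transgenic mice and 33404096 to 70240823 in their controls. Counting noise was small at this depth, since any pair of mice of a genotype differed by a chi-square of 24.7 or more per gene, and counting alone gives 1. A log2 difference is the mean of log2(normalized count + 1) in mThy1-α-synuclein mice minus that in wild-type mice, so that 1 stands for a 2-fold difference and low genes are understated. Adjusted p-values come from limma's moderated test, corrected by the Benjamini-Hochberg method over all 13627 genes, and a gene with an adjusted p under 0.05 is called. Values of single mice are given in the order of replicates 1 to 5. The p-values measure the spread between 5 animals of each genotype.

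Thy1, whose promoter drives the transgene, was higher in the mThy1-α-synuclein mice. The gene, which encodes a surface glycoprotein of neurons and T cells, had 1117, 1463, 1741, 1197 and 1595 normalized counts in the 5 transgenic mice and 15.9, 32.4, 13.2, 9.41 and 15.9 in the wild-type mice (log2 difference 6.37, standard error 0.26, adjusted p = 3.44e-09). Every transgenic mouse lay above every wild-type mouse. Whether reads from the transgene entered these counts was not tested. The Y-linked gene Ddx3y lay between 3876 and 5068 in all 10 mice and Xist reached at most 14.98.

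Of the 13627 genes, 1045 were called, which is 7.67% of those tested. The calls were balanced in direction, since mThy1-α-synuclein mice had 529 genes higher (3.88%) and 516 genes lower (3.79%), and their median absolute log2 difference was 0.51. In 991 tested genes (7.27%) the mice of the genotypes did not overlap, and 707 of these were called. The median difference over all tested genes was -0.00257. Among the called genes 1007 encode proteins. Without 1 mouse the count lay between 497 (without wild-type replicate 2) and 1235 (without wild-type replicate 4), and it was over 1.5 times smaller without mThy1-α-synuclein replicate 1, 3 or 5 or wild-type replicate 1, 2, 3 or 5. DESeq2 on the recovered reads called 1695 genes. These shares are the background against which the counts of each gene group are given, and no test was run on any group.

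The label of the cells held in every mouse. All 20 homeostatic microglia markers were measured, and P2ry12, a purinergic receptor gene typical of microglia, ranged from 203983 to 305103 normalized counts over the 10 mice. Of these 20 markers 4 were called (20%, against 7.67% of all genes), all higher in mThy1-α-synuclein mice, and their differences were small. The fractalkine receptor gene Cx3cr1 had 275177, 282177, 282898, 306598 and 313101 against 261918, 247487, 237814, 259887 and 251797 (log2 difference 0.21, standard error 0.06, adjusted p = 0.0473). Sall1, a transcription factor of microglial identity, had 36459.6, 32091, 35864, 32297 and 38173 against 26956, 29018, 27879.9, 32169 and 25812 (log2 difference 0.30, standard error 0.07, adjusted p = 0.0266). The Cx3cr1 values did not overlap between genotypes, while the lowest mThy1-α-synuclein mouse for Sall1 lay just below the highest wild-type mouse. Siglech, a sialic acid receptor, and Itgam, which encodes CD11b itself, were higher by 0.31 and 0.22 on the log2 scale. The Cx3cr1 call was lost in 15 of the 22 settings tried, and without mThy1-α-synuclein replicate 1, 3 or 5 or wild-type replicate 1, 2 or 3 none of the 20 markers was called. P2ry12, Tmem119 and Csf1r did not pass the test, with log2 differences of 0.19, -0.19 and 0.12. Among 20 markers of disease-associated microglia (10% called) 1 was higher (Itgax, 0.31) and 1 lower (Lgals3, -0.74).

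Markers of T and NK cells, neutrophils, monocytes and border macrophages were among the genes called lower in mThy1-α-synuclein mice. Of 10 tested T and NK cell markers 7 were called (70%, against 7.67% of all genes), all lower, and the median log2 difference of the 10 was -1.37. Cd3d, a subunit of the T cell receptor complex, had 49.8, 38.3, 65.3, 22.4 and 76.3 normalized counts in transgenic mice and 187, 359, 285, 149 and 267 in wild-type mice (log2 difference -2.33, standard error 0.32, adjusted p = 0.00143). The genotypes did not overlap for this gene. Prf1, which encodes perforin, fell by 1.80 and the granule protein gene Nkg7 by 1.71. Of 12 neutrophil markers 4 were called lower (33.3%, median -1.10), of 12 monocyte markers 5 (41.7%, median -0.67) and of 12 border macrophage markers 6 (50%, median -0.52), with none higher. Mrc1, the mannose receptor of perivascular and meningeal macrophages, had 10539, 12137, 9534, 8520.3 and 8466 against 15333, 13911, 12915, 12879 and 11978 (log2 difference -0.45, standard error 0.10, adjusted p = 0.0151). Retnlg, a neutrophil gene, had 3518, 2042, 3683, 1923 and 4909 against 8204, 10220.0, 11665, 4753 and 9913 (log2 difference -1.51, standard error 0.33, adjusted p = 0.0301). For Mrc1 and Retnlg the highest mThy1-α-synuclein mouse lay just above the lowest wild-type mouse. In whole fractions like these, fewer cells of a type and less RNA per cell cannot be told apart.

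The marker lists were also summarized per mouse as a list level, the mean over members of log2(normalized count + 1) minus the mean of the 10 mice. The T and NK cell level lay between -0.87 and -0.29 in mThy1-α-synuclein mice and between 0.20 and 1.16 in wild-type mice. For border macrophages the ranges were -0.55 to -0.03 and 0.13 to 0.39, again without overlap. Neutrophil levels ranged from -1.26 to 0.01 and from -0.17 to 1.02, and monocyte levels from -0.91 to -0.05 and from -0.33 to 0.70. Wild-type replicate 4 lay nearest to the transgenic mice in both of these lists. The summed neutrophil markers were 101400 to 238000 normalized counts in transgenic mice and 198500 to 453500 in wild-type mice. Their shift runs beside every other group below in which the wild-type mice were higher, and its part in those results was not tested. Counts of called blood cell markers depended on single mice. Without 1 mouse, between 3 (without mThy1-α-synuclein replicate 1 or wild-type replicate 1, 2 or 5) and 7 T and NK markers were called lower. For neutrophil markers the count went from 0 (without mThy1-α-synuclein replicate 2 or wild-type replicate 1, 2 or 3) to 8 (without wild-type replicate 4). It went from 0 (without wild-type replicate 2 or 3) to 7 (without wild-type replicate 4) for monocyte markers, and from 2 (without wild-type replicate 2) to 5 for border macrophage markers. Without both mThy1-α-synuclein replicate 4 and wild-type replicate 1, which lay farthest from the other mice of their genotypes, the counts were 3, 1, 1 and 3. This setting was chosen after seeing the data.

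**Figure D1:**
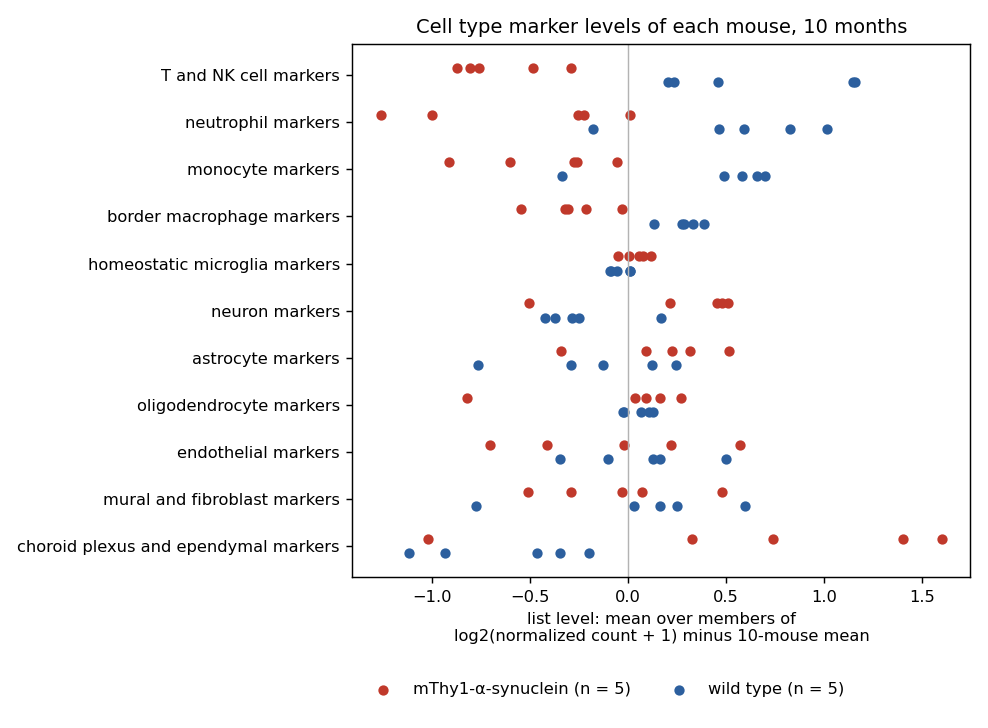
Level of 11 cell type marker lists (rows) in each 10-month mouse, as the mean over members of log2(normalized count + 1) minus the 10-mouse mean (horizontal axis). Each point is 1 mouse, red for mThy1-α-synuclein and blue for wild type (n = 5 each). The neuron row includes Thy1. The T and NK cell and border macrophage rows do not overlap between genotypes, the neutrophil and monocyte rows overlap through wild-type replicate 4, and the homeostatic microglia row stays between -0.09 and 0.12.

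Other brain cell types did not move as 1 block. Of 19 neuron markers, 1 was higher, Thy1, and 2 were lower, among them Camk2a (-0.51), and the median log2 difference was 0.06. Neuron list levels ranged from -0.50 to 0.51 in mThy1-α-synuclein and from -0.42 to 0.17 in wild-type mice. Thy1 is a member of this list, and its large difference raises the transgenic levels. Of 18 astrocyte markers only Aldh1l1, a folate enzyme, was called (1.09, adjusted p = 0.0493), and that call was lost in 17 of the settings tried. Still, 16 of the 18 had positive and 2 negative log2 differences, with a median of 0.30. Astrocyte list levels overlapped, from -0.34 to 0.52 in mThy1-α-synuclein and from -0.77 to 0.25 in wild-type mice. The summed astrocyte markers ranged from 93780 to 145500 and from 82860 to 103200 normalized counts. No marker of oligodendrocytes or their precursors, endothelial cells, mural cells, B cells or red blood cells was called, of 11, 5, 15, 12, 4 and 2 tested. The 6 tested choroid plexus and ependymal markers had a median log2 difference of 1.28 with none called, and their summed counts ranged from 3348 to 25650 in mThy1-α-synuclein mice and from 2873 to 5607 in wild-type mice. mThy1-α-synuclein replicates 4 and 5 held the highest 2 of these sums.

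Among the 50 pathway lists, which leave out the ER stress genes (40.5% called), the cytosolic heat shock genes had the largest share called. These encode the chaperones that fold new and damaged proteins, and their joint control by the factor HSF1 is among the best known stress programs of the cell. All 29 listed genes were measured, 11 were called lower in mThy1-α-synuclein mice and none higher (37.9% called against 7.67% of all genes), and the median log2 difference was -0.26. Hsph1, a large HSP110 chaperone that recycles HSP70, had 2217, 1723, 2002, 1749.6 and 1597 normalized counts against 8614, 3601, 2829, 4450.1 and 3449 (log2 difference -1.19, standard error 0.27, adjusted p = 0.0308). Stip1, the co-chaperone that hands clients from HSP70 to HSP90, had 3234, 3890.1, 3297, 3604 and 3334 against 8996, 5468, 5058, 5847 and 5821 (log2 difference -0.82, standard error 0.13, adjusted p = 0.00392). Hspa8, the constitutive HSP70, had 60447, 58863, 58139, 67753 and 61378 against 126116, 78541, 70452, 86736 and 86279 (log2 difference -0.52, standard error 0.12, adjusted p = 0.0252). In each of these genes all mThy1-α-synuclein mice lay below all wild-type mice, and wild-type replicate 1 was the highest mouse. Hsp90ab1, the constitutive cytosolic HSP90, had 53384, 75254, 63927, 49748 and 45655 against 96207, 90074, 81082, 85588 and 76512 (log2 difference -0.60, standard error 0.12, adjusted p = 0.011). Dnaja1, an HSP40 partner of HSP70, had 9012, 8562, 8149, 8502 and 7915 against 23803, 10653, 10548, 14309.9 and 14313 (log2 difference -0.74, standard error 0.19, adjusted p = 0.0456). The genotypes were apart in both genes.

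The other called members were HSP90 partners and HSP40 genes. Fkbp4, an immunophilin of steroid receptor complexes, fell by 0.55, the HSP90 ATPase activators Ahsa1 and Ahsa2 by 0.41 and 0.68, Cacybp by 0.53, Chordc1 by 0.66 and Dnajb1 by 0.43. The inducible HSP70 genes Hspa1a and Hspa1b, which are nearly identical copies and could share reads, had log2 differences of -0.26 and -0.26 with adjusted p-values of 0.156 and 0.0979. Hsf1 itself did not pass (-0.19, adjusted p = 0.285), nor did Hsp90aa1 (-0.33, adjusted p = 0.111). The list level lay between -0.21 and -0.13 in mThy1-α-synuclein mice and between 0.05 and 0.42 in wild-type mice, with wild-type replicate 1 at 0.42 and the other 4 at 0.17 or less. Leaving out that mouse kept 10 members called lower, as did leaving out mThy1-α-synuclein replicate 4 as well. The count was 6 without mThy1-α-synuclein replicate 1, 3 or 5 or wild-type replicate 5, and 13 without wild-type replicate 3. Calls of Hspa8, Hsph1, Dnaja1, Chordc1 and Dnajb1 were each lost in at least 6 of the settings tried, and those of Stip1, Fkbp4, Hsp90ab1, Ahsa1 and Ahsa2 in none. At 7 months the same list had a median log2 difference of 0.05, and the difference between the ages passed the test for all called members but Dnaja1 and Dnajb1, with an adjusted p of 0.00112 for Stip1, 0.00919 for Hspa8, 0.0313 for Hsph1 and 0.0391 for Hsp90ab1. The test between the ages uses the same 10-month values by which these members were called. It passed for 329 of all 1045 called genes.

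The upstream sequences of 3 called heat shock genes are shown because they hold the short inverted repeat of GAA that heat shock factors bind. The letters searched were GAANNTTC and TTCNNGAA, each of which is its own reverse complement, in the 250 bases before each start listed by RefSeq on GRCm38.p6. Of the 11 called members 9 had a listed promoter and 3 held a match, against 10 of the 23 listed members and 12.4% of the 10230 tested genes with a promoter. Over all 32851 promoters of the table the share was 12.8%. Each sequence is printed 5′ to 3′ on the strand of its gene and ends at the base before the start, with the match in capitals. The match begins -33 bases from the start in Hsph1, -124 in Dnaja1 and -151 in Fkbp4.
Hsph1, chr5:149636337-149636586, strand -: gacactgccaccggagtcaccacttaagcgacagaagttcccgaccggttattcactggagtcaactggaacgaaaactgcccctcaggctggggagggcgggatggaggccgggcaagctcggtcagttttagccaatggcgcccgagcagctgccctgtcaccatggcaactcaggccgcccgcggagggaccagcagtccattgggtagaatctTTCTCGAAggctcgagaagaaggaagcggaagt
Dnaja1, chr4:40722218-40722467, strand +: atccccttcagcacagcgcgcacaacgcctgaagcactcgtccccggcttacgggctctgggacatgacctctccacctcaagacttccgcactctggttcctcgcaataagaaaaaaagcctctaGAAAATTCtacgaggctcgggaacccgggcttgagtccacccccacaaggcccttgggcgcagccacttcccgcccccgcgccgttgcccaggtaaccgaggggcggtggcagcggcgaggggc
Fkbp4, chr6:128438657-128438906, strand -: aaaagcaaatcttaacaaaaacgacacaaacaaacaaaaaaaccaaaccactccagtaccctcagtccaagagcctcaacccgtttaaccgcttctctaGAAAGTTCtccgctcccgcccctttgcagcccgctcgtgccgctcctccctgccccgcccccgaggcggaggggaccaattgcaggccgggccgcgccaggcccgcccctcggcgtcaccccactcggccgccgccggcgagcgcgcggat
A match is a description of the letters only. Most called members with a listed promoter had no match in this window.

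Against the fall of the heat shock genes stood a rise of Cirbp and Rbm3, a pair of RNA-binding proteins best known for being induced by mild cold. Cirbp had 1847, 1792, 1674, 2714 and 2703 normalized counts in transgenic mice and 563, 682, 808, 602 and 728 in wild-type mice (log2 difference 1.64, standard error 0.15, adjusted p = 7.06e-05). Rbm3, on the X chromosome, had 7804, 6436, 5474, 11471 and 9424 against 2533, 2281, 2678, 2224 and 3188 (log2 difference 1.62, standard error 0.19, adjusted p = 0.00147). The lowest mThy1-α-synuclein mouse was at 1674 for Cirbp and 5474 for Rbm3, where the highest wild-type mouse was at 808 and 3188. mThy1-α-synuclein replicates 4 and 5 were the highest mice for both genes. At 7 months both genes lay the other way, Cirbp at -0.72 (adjusted p = 0.00566) and Rbm3 at -0.61 (adjusted p = 0.0496), and the difference between the ages passed the test for both (interaction 2.36, adjusted p = 2.17e-06, and 2.22, adjusted p = 0.000185). Neither call at 10 months was lost in any alternative. Body temperature was not among the data used here.

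**Figure D2:**
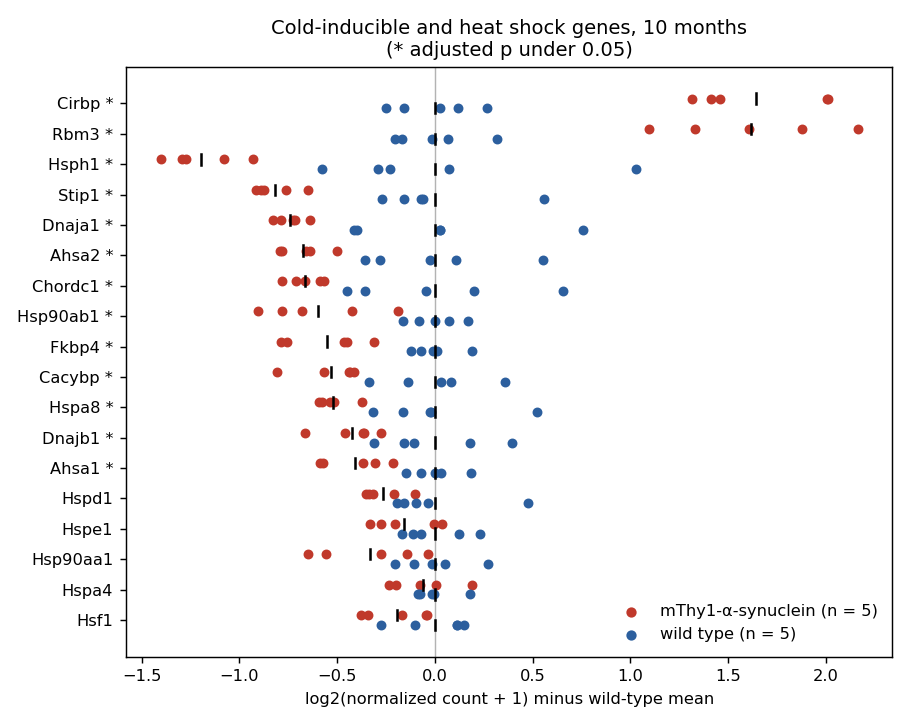
Normalized counts of the cold-inducible pair Cirbp and Rbm3 and of 16 heat shock genes in each 10-month mouse, as log2(normalized count + 1) minus the wild-type mean (horizontal axis). Points are mice (red mThy1-α-synuclein, blue wild type, n = 5 each), black bars are group means and an asterisk marks an adjusted p under 0.05. Cirbp and Rbm3 lie to the right in all 5 transgenic mice, Hsph1 lies furthest to the left, and the isolated blue point of the heat shock rows is wild-type replicate 1.

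The remaining protein folding and breakdown groups had called shares of 2.04% to 7.14%, against 7.67% of all genes. Of 14 chaperonin and prefoldin genes only Cct3 was called (-0.27), though 12 of the 14 had negative log2 differences. Among 49 proteasome subunits 1 was lower (Shfm1, -0.35) and 40 had negative values with a median of -0.08. Ube2b (-0.29) was the sole call among 30 ubiquitin-conjugating enzymes. Autophagy machinery had 1 gene higher, the kinase Ulk2 (0.26), and 1 lower, the lipid-conjugating enzyme Atg3 (-0.37), of 44. The genes left aside here because they are inflammatory, ER stress or LXR genes counted 12 higher and 35 lower of 263 (17.9% called), 1 higher and 14 lower of 37 (40.5%), and 4 higher and 1 lower of 23 (21.7%). The level of the ER stress list in wild-type replicate 1 was 0.40, above all other mice, as it was for the cytosolic chaperones.

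RNA-binding splicing factors changed in both directions. Of 49 genes of the SR and hnRNP families 5 were higher and 5 lower (20.4% called), and their median was 0.01. Besides Cirbp and Rbm3, the higher genes were Hnrnpdl, Srsf5 (0.42) and Hnrnpd (0.22). Hnrnpdl, which binds AU-rich RNA, had 5257, 5102, 5070.3, 4996 and 5607 against 3701, 3594, 3949.6, 3887 and 4365 (log2 difference 0.42, standard error 0.07, adjusted p = 0.00332). Tra2a, a splicing activator, had 1951, 1665, 1774, 1596 and 1505 against 3013, 2108, 2314, 2927 and 2939 (log2 difference -0.64, standard error 0.11, adjusted p = 0.00435). Both genes separated the genotypes, in opposite directions. Hnrnpc fell by 0.47, Hnrnpm by 0.36, Srsf10 by 0.32 and Srsf1 by 0.31. Of the called members, Srsf10 and Hnrnpd lost their call in 13 and 12 settings. For all 10 called members the effect also differed from that at 7 months, for example for Hnrnpdl and Tra2a (interaction 0.76, adjusted p = 0.000369, and -0.88, adjusted p = 0.0169). The test of that difference uses the same 10-month values by which these members were called. It passed for 329 of all 1045 called genes.

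Genes of protein synthesis held few calls, and all lists but the translation factors were below the background share. Of 85 cytoplasmic ribosomal protein genes only Rpl21 was called (0.41), of 77 mitochondrial ones only Mrpl36 (-0.30), and no cytosolic tRNA synthetase of 20 and no ribosome biogenesis factor of 42 passed. Translation factors had 3 higher and 3 lower of 67 (8.955% called, near the 7.67% of all genes). Eif5a2, the less common eIF5A gene, rose by 0.62 and Eif4b, a helicase cofactor, by 0.25, while the release factor gene Gspt1 was at -0.35 and the helicase gene Eif4a2 at -0.30. Small nucleolar RNA host genes had a list level of 0.04 to 0.22 in mThy1-α-synuclein mice and -0.27 to 0.03 in wild-type mice, although none of the 17 was called. With the heat shock genes this was 1 of 2 among 50 pathway lists whose levels did not overlap between genotypes. Levels of the ER stress list, left aside here, did not overlap either.

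Zinc finger genes are the largest family among transcription and chromatin genes here. Of 345 C2H2 zinc finger genes, most of which encode DNA-binding repressors, 10 were higher and none lower. That is 2.90% called, below the background of 7.67%, and the median was 0.06. Zfp69 had 602, 1166, 1372, 679 and 1304 against 248, 439, 325, 496 and 319 (log2 difference 1.45, standard error 0.27, adjusted p = 0.012). Zfp277 had 588, 1157, 1061, 1941 and 1675 against 435, 509, 396, 446 and 608 (log2 difference 1.32, standard error 0.29, adjusted p = 0.026). The spread among the transgenic mice was wide in both, and for Zfp277 replicate 1 fell inside the wild-type range. Znf512b (0.51), Zfp467 (0.43) and Zfp266 (0.38) were higher with less spread. Between 4 (without mThy1-α-synuclein replicate 5 or wild-type replicate 1 or 2) and 12 (without mThy1-α-synuclein replicate 4) of these genes were called higher without 1 mouse. Without wild-type replicate 3 or 4 there was 1 lower, and with DESeq2 there were 17 higher and 3 lower. Replication-dependent histones, which are made in S phase, had 4 lower of 22 (18.2% called) with a median of -0.46, and all 4 were H2B genes. Hist1h2be had 113, 116, 161, 94.5 and 118 against 199, 274, 237, 237 and 262 (log2 difference -1.01, standard error 0.17, adjusted p = 0.00422), with no overlap between genotypes. Hist1h2bc fell by 0.51, Hist1h2bf by 0.89 and Hist1h2bg by 0.63. These genes are close copies of each other that could share reads, and most histone messages carry no poly(A) tail. Of 68 histone-modifying enzymes (4.41% called) Sirt2 was higher (0.27) and Setd8 (-0.35) and Eed (-0.24) were lower.

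Called glycolysis genes were lower in mThy1-α-synuclein mice with 1 exception. Of 27 tested enzymes and transporters 9 were called lower and 1 higher (37.0% called), and their median log2 difference was -0.21. Slc16a3, the monocarboxylate transporter MCT4 that exports lactate, had 1020.5, 1206, 1322, 1128 and 1357 normalized counts against 2117, 2244, 1998, 1681 and 2259 (log2 difference -0.77, standard error 0.10, adjusted p = 0.000894). Ldha, the lactate dehydrogenase subunit that favours lactate, had 6807, 8275, 7117, 7721 and 6808 against 11379, 9587, 9573, 8525 and 10233 (log2 difference -0.42, standard error 0.08, adjusted p = 0.00897). Ldhb, the other main lactate dehydrogenase subunit, had 16161, 17493, 16761, 18065 and 19117 against 10015, 13358, 14376, 15041 and 14815 (log2 difference 0.39, standard error 0.10, adjusted p = 0.0325). Both subunits separated the genotypes, Ldha downward and Ldhb upward. Pfkl, the liver-type phosphofructokinase at the committed step, had 2101, 2298, 2339, 2151 and 2246 against 3113, 2865, 3007, 2524 and 2846 (log2 difference -0.36, standard error 0.07, adjusted p = 0.00862). Pgk1 fell by 0.37, Tpi1 by 0.32, Pgam1 by 0.28 and Aldoa by 0.28, and the glucose transporter genes Slc2a3 and Slc2a1 by 0.70 and 0.41. Gapdh (-0.20, adjusted p = 0.152) and Pkm (-0.22, adjusted p = 0.124) did not pass, and Hk2 was at -0.06. The list levels overlapped, from -0.12 to 0.02 in mThy1-α-synuclein and from -0.02 to 0.13 in wild-type mice. Slc16a3, Ldha, Pfkl and Pgk1 kept their calls in every setting, while of the 22 settings Slc2a1 lost its call in 14, Tpi1 and Slc2a3 in 11, Aldoa in 9, Pgam1 in 7 and Ldhb in 6. Between 4 (without mThy1-α-synuclein replicate 1 or 5 or wild-type replicate 1 or 5) and 12 (without wild-type replicate 4) enzymes were called lower without 1 mouse. At 7 months the median of the list was -0.01, and the effect of Slc16a3, Ldha and Pfkl differed between the ages (adjusted p of 0.0187, 0.0293 and 0.00961).

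Most other metabolic groups were called at shares near or below the 7.67% of all genes. None of 79 nuclear oxidative phosphorylation genes, 26 iron-handling genes or 18 V-ATPase subunits passed. Of 25 tricarboxylic acid cycle enzymes only Dlat was called (0.25), and of 34 pentose phosphate and nucleotide synthesis genes only Pgd (-0.28). Cholesterol synthesis and uptake had 2 lower of 24 (8.33% called), among them the sterol isomerase gene Ebp (-0.27). Fatty acid oxidation and peroxisome genes had 3 higher of 48 and none lower (6.25% called). They were Acsl4, which activates polyunsaturated fatty acids (0.48), the peroxisomal oxidase Acox3 (0.44) and the peroxisomal import receptor Pex7 (0.34).

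Glutathione and NRF2 target genes changed in both directions, 3 higher and 3 lower of 37 (16.2% called, against 7.67% of all genes). Nnt, the mitochondrial transhydrogenase that makes NADPH, had 5613, 5466, 5048, 5077 and 5158 normalized counts against 1646, 3307, 3232, 2078 and 1834 (log2 difference 1.18, standard error 0.19, adjusted p = 0.00629). Abcc1, which exports glutathione conjugates, had 2460.0, 2458, 2656, 2394 and 2658 against 398, 1244, 514, 1005 and 435 (log2 difference 1.97, standard error 0.31, adjusted p = 0.00862). In both genes the 5 mThy1-α-synuclein mice were close together while the wild-type mice spread widely, for Abcc1 with an SD of log2 values of 0.0701 against 0.744. Wild-type replicates 2 and 4 were the highest wild-type mice for Abcc1, replicates 2 and 3 for Nnt. Whether the mice also differed in their alleles of either gene was not tested. Gclc, the rate-limiting enzyme of glutathione synthesis, rose by 0.51. Gsr, glutathione reductase, had 2672, 1921, 2995, 1709.7 and 3446 against 7739, 7573, 7929, 4184 and 5762 (log2 difference -1.39, standard error 0.24, adjusted p = 0.011), and thioredoxin (Txn1) fell by 0.52 and Osgin1 by 0.93. The lowest wild-type value of Gsr was that of replicate 4, the wild-type mouse with the lowest neutrophil level. Hmox1 (-0.31, adjusted p = 0.139) and Nqo1 (0.47, adjusted p = 0.742), classical NRF2 targets, did not pass.

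Of 39 amino acid and glucose transporters 3 were higher and 5 lower. Slc2a9, a urate transporter, had 1018, 850.5, 989.9, 1171 and 1367 against 539, 498, 572, 468 and 614 (log2 difference 0.99, standard error 0.12, adjusted p = 0.000639), and Slc6a6, the taurine transporter, rose by 0.50. The genotypes did not overlap in either gene. Slc1a4, a neutral amino acid exchanger, fell by 1.06 and the peptide and histidine transporter Slc15a4 by 0.31.

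Of 34 genes in a mixed list of p53 targets and DNA damage genes, 7 were called lower and 2 higher (26.5% called), and 25 did not pass. The median log2 difference was -0.19, and 12 of the 34 were positive. Cdkn1a, the p21 inhibitor of cyclin-dependent kinases, had 926, 843, 971, 929 and 899 normalized counts against 1552, 1339.6, 1258, 1349 and 1491 (log2 difference -0.61, standard error 0.08, adjusted p = 0.000903). Gadd45a, a stress sensor of DNA damage, had 348, 245, 412, 227 and 423 against 1035, 1055, 1113, 426 and 775 (log2 difference -1.38, standard error 0.28, adjusted p = 0.0179). Cdkn1a values were tightly grouped in both genotypes, while Gadd45a was low in wild-type replicate 4 as well. The nuclease gene Aen fell by 0.55, Gadd45b by 0.62, the death receptor gene Fas by 0.78, Plk2 by 0.50 and the repair gene Xpc by 0.30. Sesn1 (0.33) and Zmat3 (0.55), both p53 targets, were higher. Trp53 itself was at 0.04 (adjusted p = 0.75). Without 1 mouse, between 4 (without wild-type replicate 2) and 8 members were called lower and 2 higher, and without both mThy1-α-synuclein replicate 4 and wild-type replicate 1 there were 4 and 2. Cell division genes had a median of -0.34 but only 2 calls of 41, Mcm3 higher (0.48) and Hmgb2 lower (-0.70). Their list levels overlapped, from -0.55 to 0.17 and from -0.21 to 0.68.

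Hormone and clock genes were called in both directions. Among 21 glucocorticoid-induced genes (19.05% called, against 7.67% of all genes) Sgk1 (0.56) and Sesn1 were higher and Cebpd (-0.57) and Cdkn1a lower. Among 22 circadian clock genes (13.6% called) Rora was higher (0.51) and Nfil3 (-0.82) and Bhlhe40 (-0.44) were lower, and the clock list levels overlapped. Of 24 immediate-early genes, which respond within minutes to handling and tissue dissociation, Fosl2 (-0.71) and Fosb (-0.67) were lower and 19 had negative log2 differences with a median of -0.16.

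The adhesion genes called were cadherins, integrins and Vcam1. Of 63 integrin and cadherin genes 8 were higher and none lower (12.7% called), and 5 of the 8 were protocadherins, which mediate contact between cells of the same isoforms. Pcdhgb1 had 117, 94.9, 63.1, 100.3 and 116 against 38.1, 14.1, 21.7, 20.2 and 22.1 (log2 difference 2.07, standard error 0.30, adjusted p = 0.00176). Pcdhgb2 had 1597, 1631, 1703, 1782 and 1609 against 687, 279, 624.8, 767 and 454 (log2 difference 1.65, standard error 0.23, adjusted p = 0.00392). In Pcdhgb2 the 5 transgenic mice lay between 1597 and 1782, while the wild-type mice spread from 279 to 767. Pcdhga3 rose by 1.39, Pcdhga4 by 0.77 and Pcdhb22 by 0.40. The gamma protocadherins share their last exons, so how reads in those exons were divided could affect these values. Vcam1 (0.43), Itgax (0.31) and Itgam (0.22) were the other called members. Between 3 (without mThy1-α-synuclein replicate 3) and 7 were called higher without 1 mouse. Members were also called lower in some settings, 2 without wild-type replicate 4, 1 without both mThy1-α-synuclein replicate 4 and wild-type replicate 1 and 1 with DESeq2.

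Tetraspanins, which organize membrane microdomains, had 4 higher and 2 lower of 23 (26.1% called, against 7.67% of all genes). Tspan8 had 175, 188, 161, 238 and 157 normalized counts against 37.1, 54.9, 62.2, 33.6 and 29.0 (log2 difference 2.10, standard error 0.24, adjusted p = 0.000381), with all transgenic mice at 157 or more and all wild-type mice at 62.2 or less. Tspan18 (0.66), Tspan3 (0.37) and Tspan9 (0.30) were higher, and Tspan5 (-0.27) and Tspan14 (-0.25) lower. Without 1 mouse, between 1 (without mThy1-α-synuclein replicate 5 or wild-type replicate 2 or 3) and 4 tetraspanins were called higher. Between 0 and 3 were then called lower. Among 35 sulfotransferase and glycosaminoglycan genes (11.4% called) Chst2 (2.95), Chst1 and Extl3 (0.22) were higher and Chst10 lower (-0.95). Chst1, a keratan sulfate sulfotransferase, had 1707, 1643, 1897, 1069.7 and 1766 against 612, 930.1, 759.6, 606 and 626 (log2 difference 1.19, standard error 0.16, adjusted p = 0.00147). mThy1-α-synuclein replicate 4 was the lowest of its group for Chst1 and still above every wild-type mouse. Among 25 sialyltransferases and Siglecs (8% called) St3gal4 was lower (-0.53) and Siglech higher.

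Matrix genes split by member. Of 53 collagens and matrix glycoproteins 4 were higher and 3 lower (13.2% called, against 7.67% of all genes). Thbs2 and Thbs1, a pair of thrombospondins that bind integrins and CD36, moved in opposite directions. Thbs2 had 392.4, 283, 319, 328 and 306 against 142, 156, 165, 188 and 189 (log2 difference 0.95, standard error 0.14, adjusted p = 0.00198). Thbs1 had 3088, 2567, 3240.4, 2789 and 5254 against 6549, 10425, 8468, 6629 and 7122 (log2 difference -1.24, standard error 0.20, adjusted p = 0.00756). P4ha1, the prolyl hydroxylase subunit that matures collagen, had 14561, 19218, 16773, 12872 and 12682 against 26303, 25905, 22147, 28287 and 23982 (log2 difference -0.75, standard error 0.11, adjusted p = 0.00217). None of these genes overlapped between genotypes. Lamb2 (0.79), Col6a3 (0.95) and Col15a1 (0.30) were higher, and the fibronectin gene Fn1, which is also a monocyte marker, fell by 0.48. Of 46 proteases and inhibitors 5 were higher and 3 lower (17.4% called). Adamts17 was higher (3.11, adjusted p = 0.0412) with transgenic values from 7.02 to 74.7 and wild-type values of at most 11.1, and the urokinase receptor gene Plaur was lower (-0.69).

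Potassium and TRP channel genes and phosphoinositide genes were called higher only. Of 46 potassium and TRP channel genes 5 were higher and none lower (10.9% called, against 7.67% of all genes). Kcnj14, an inward rectifier potassium channel, had 89.9, 153, 212, 16.6 and 30.1 normalized counts against 0, 5.63, 4.71, 2.69 and 4.15 (log2 difference 4.22, standard error 0.72, adjusted p = 0.00489). Trpm3, a calcium-permeable channel, had 189, 105, 128, 335 and 365 against 49.8, 47.8, 84.8, 75.3 and 71.9 (log2 difference 1.61, standard error 0.33, adjusted p = 0.012). Replicates 4 and 5 were the lowest transgenic mice for Kcnj14 and the highest for Trpm3, and they also held the highest choroid plexus marker sums. The part of those markers in the Trpm3 result was not tested. Kcnab3 (1.00), Kcna3, the lymphocyte and microglial channel Kv1.3 (0.74), and Trpm7 (0.29) were also higher. Between 2 (without mThy1-α-synuclein replicate 1, 3 or 5 or wild-type replicate 1, 2 or 3) and 6 channel genes were called without 1 mouse. Among 49 phosphoinositide genes 4 were higher and none lower. That is 8.16% called, close to the share over all genes. They were the IP3 receptor gene Itpr3 (0.42), the kinase genes Pip5k1c (0.31) and Pik3cg (0.33) and the phosphatase gene Inpp4b (0.35), and without 1 mouse between 2 (without mThy1-α-synuclein replicate 1, 3 or 5 or wild-type replicate 3 or 5) and 8 (without mThy1-α-synuclein replicate 4) were called.

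Receptors and secreted signals gave scattered calls. Among 40 heterotrimeric G protein and RGS genes (12.5% called, against 7.67% of all genes) 2 were higher, Rgs1 (0.74) and Gng3 (1.96), and 3 lower, of which Gnb4 had the largest difference (-4.78) and Rgs18 (-0.77) and Rgs3 (-0.44) smaller ones. The TGF-beta, BMP and activin group had 3 higher and 3 lower of 41 (14.6% called). Nrros, which anchors latent TGF-beta on microglia, fell by 0.43, Tgfbi by 0.69 and Bmp2 by 0.77, and the procollagen protease Bmp1 rose by 0.80. Of 16 adhesion G protein-coupled receptors 2 were lower and none higher (12.5% called). Of 37 growth factor and receptor genes Vegfa (-1.04) and Met (-1.28) were lower. Of 52 Wnt and Notch genes Apc (0.38) and Maml3 (0.26) were higher. Semaphorins and their partners had 3 higher, Sema3c (1.44), Sema4g (0.35) and Plxna4 (0.32), and 1 lower, Sema4a (-0.92), of 47. In the purinergic group of 26, the ATP-gated channel gene P2rx4 fell by 0.31 and the nucleotidase gene Entpd4 rose by 0.41.

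Cytoskeletal genes changed in both directions. The alpha-tubulin gene Tuba1c fell by 0.38, Tuba1b by 0.35 and Tuba1a by 0.34. Their list of 69 tubulins, kinesins and dyneins had 2 higher and 5 lower (10.1% called, against 7.67% of all genes). The 3 alpha-tubulin genes are close copies that could share reads. Dynll1, a dynein light chain, fell by 0.60, and Kif21b, a kinesin, rose by 0.46. Dync2h1, the dynein of cilia, had 593, 331, 403, 302 and 345 against 193, 176, 185, 237 and 148 (log2 difference 1.04, standard error 0.18, adjusted p = 0.00549), with no overlap. Among 59 actin regulators 6 were higher and 4 lower (16.95% called), with Daam1 (0.37), Cfl2 (0.36), Cyfip1 (0.28) and Fmnl3 (0.25) on the higher side. Of 38 small GTPases and DOCK exchange factors (18.4% called) 3 were higher, the engulfment genes Elmo1 (0.35) and Dock2 (0.26) and Dock9 (0.42), and 4 were lower, among them Rnd3 (-0.93) and Rhov (-2.15).

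Lysosome and trafficking genes were called at shares near or below the 7.67% of all genes. Of 55 lysosomal genes (7.27% called) 3 were higher, among them the sulfatase gene Arsb (0.30) and the galactosidase gene Glb1 (0.42). The lower gene was Ctsk, a cathepsin of bone-resorbing cells, with 16.9, 0, 3.21, 1.95 and 4.01 normalized counts against 11.6, 14.1, 289, 47.0 and 54.6. Wild-type replicate 3 alone accounts for most of its wild-type mean, and its call was lost in 9 settings. Vti1a (0.28) and Ykt6 (0.23) were higher and Snap23 (-0.30) and Stx11 (-1.13) lower among 52 SNARE and ESCRT genes (7.69% called). Of 48 Rab genes (2.08% called) only Rab44 was called (-1.91).

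**Figure D3:**
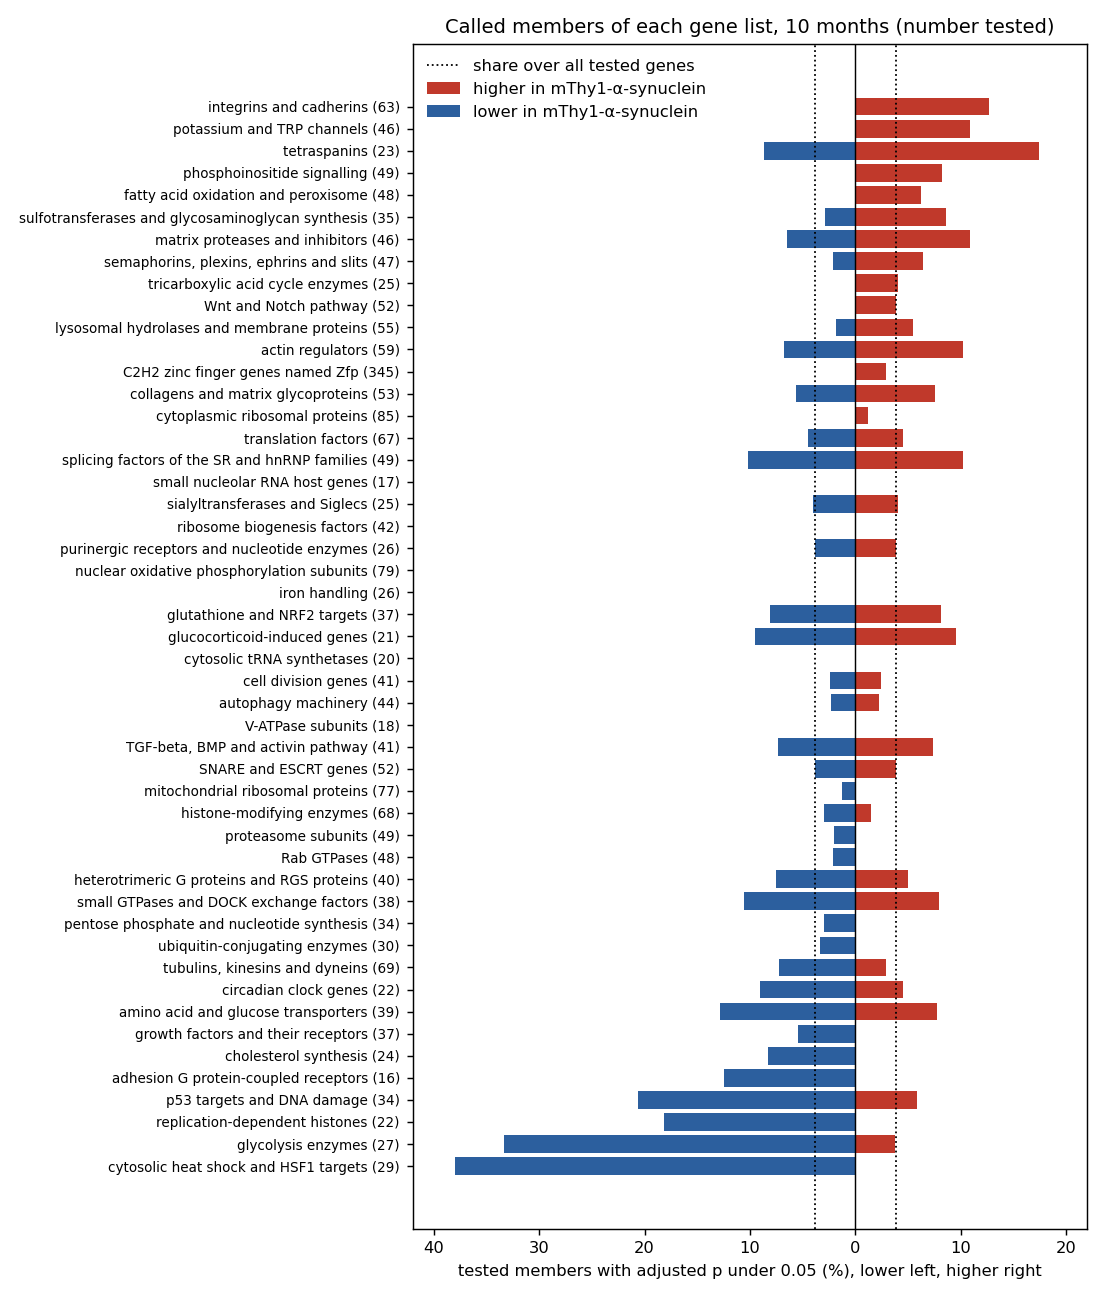
Share of tested members called higher (red, to the right) and lower (blue, to the left) in mThy1-α-synuclein mice for each pathway list with at least 15 tested members, in percent. Dotted lines mark the shares over all 13627 genes, 3.88% higher and 3.79% lower, and the number tested stands beside each list name. The heat shock list, the glycolysis list and the list of p53 targets and DNA damage genes reach furthest to the left. The tetraspanin and the integrin and cadherin lists reach furthest to the right.

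In all, 50 pathway lists were described, of which 6 had no called gene, 8 only higher, 11 only lower and 25 both. They held 193 of the 1045 called genes.

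Of the lower called genes with large differences, Skint3 was on-off between the genotypes, while Tceanc2, Hdc and Arnt2 had counts in both. Skint3, a member of a family of thymic and skin epithelial proteins, was at 0 in all 5 mThy1-α-synuclein mice and at 243, 38.0, 319, 445 and 631 normalized counts in the wild-type mice (adjusted p = 7.3e-06). Set against a floor of 3 reads in 1 library, or 3.21 normalized counts, its level was at least 104-fold lower. Tceanc2 had 126, 63.0, 93.1, 57.5 and 154 against 769, 256, 1149, 1340.0 and 1316 (log2 difference -3.16, standard error 0.48, adjusted p = 0.00713). Both genes lie on chromosome 4, Skint3 at 112232245 to 112300468, and wild-type replicate 2 was the lowest wild-type mouse for both. Hdc, the histamine-synthesizing enzyme of basophils and mast cells, had 657, 429, 844, 285 and 715 against 3611, 2807, 2415, 1163 and 1928 (log2 difference -2.03, standard error 0.37, adjusted p = 0.0158). Arnt2, a bHLH-PAS factor of neurons, had 15.1, 19.9, 34.2, 74.0 and 38.1 against 81.5, 132, 127, 149 and 85.0 (log2 difference -1.81, standard error 0.37, adjusted p = 0.0116). The values did not overlap for either gene, and wild-type replicate 4 was the lowest of its group for Hdc. Agpat9 (-2.03), Mpzl3 (-1.88), Pde7b (-1.83) and Ppp1r42 (-1.95) were further lower genes of this size.

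On the higher side, Serpina1b had 89.0, 102, 84.5, 113 and 22.1 normalized counts against 11.6, 0, 3.77, 2.69 and 15.9 (log2 difference 3.82, standard error 0.71, adjusted p = 0.00765). It is 1 of several nearly identical antitrypsin genes, so its reads could belong to a neighbour. Cetn4, a centrin of ciliary basal bodies, had 167, 192, 119, 142 and 141 against 30.7, 47.8, 41.5, 45.7 and 17.3 (log2 difference 2.09, standard error 0.28, adjusted p = 0.00106). Fgf2, a fibroblast growth factor, had 56.9, 84.6, 81.3, 61.4 and 26.1 against 0, 9.85, 25.4, 17.5 and 4.84 (log2 difference 2.89, standard error 0.74, adjusted p = 0.034). Cetn4 and Fgf2 are neighbours on chromosome 3, at 37307749 to 37312708 and 37348346 to 37410108 of mm10, and every transgenic mouse lay above every wild-type mouse for both. The Fgf2 call was lost in 8 of the settings tried and that of Cetn4 in none. Pdzrn4 (2.22), a ubiquitin ligase gene, Nxpe4 (3.86) and Chst2 (2.95) were also among the largest increases.

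The calls were spread over all autosomes and the X chromosome. Chromosome 9 had the highest share, 81 of 750 tested genes (10.8%), with 56 higher and 25 lower, and chromosome 8 the lowest among these, 42 of 711 (5.91%). Over 10-Mb windows with at least 30 tested genes, the share reached 28.1% (9 of 32) at positions 60000001 to 70000000 of chromosome 5 and 25% (14 of 56) at positions 80000001 to 90000000 of chromosome 7. Windows were chosen after their values were seen.

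The called genes with the highest counts had small differences. Besides Cx3cr1 and Itgam, the poly(A)-binding protein gene Pabpc1 and the membrane skeleton gene Epb4.1l2 rose by 0.23 and 0.34. Lower genes of this abundance were chaperones, Hspa8 and Hsp90ab1 in the cytosol and Hsp90b1 (-0.47), Calr (-0.47) and Pdia3 (-0.38) in the endoplasmic reticulum.

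Most genes called at 10 months were not called at 7 months. The genotype groups were equal in size at 10 months, while at 7 months there were more mThy1-α-synuclein than wild-type mice. The tests of the ages therefore differed in design and could differ in power. The effect of this on the overlap of calls was not tested. At 7 months 684 genes were called, and 99 genes were called at both ages. That is 14.5% of the 7-month calls, beside 7.67% called among all genes at 10 months. It is also 9.47% of the 10-month calls, whose background would be the share called among all genes at 7 months, not given here. Of the 99 shared genes 66 had the same direction, as did 615 of the 1037 genes called at 10 months that were also tested at 7 months. The difference between the ages was tested in 1 fit of all 20 mice and passed for 930 of 14256 genes (6.52%), including 329 of those called at 10 months. Genes called at 10 months were chosen by values that also enter this difference, which favours their passing. The ages were normalized and handled separately, so that age and handling cannot be told apart in this difference. Zeb1, a zinc finger repressor of epithelial genes, had 5099.7, 4864, 4348, 4526 and 4093 normalized counts against 2825, 3415, 3733, 2942 and 3274 at 10 months (log2 difference 0.51, standard error 0.09, adjusted p = 0.00467), whereas its difference at 7 months was -0.88 (interaction 1.38, adjusted p = 1.52e-06). P4ha1 was higher at 7 months (0.46, adjusted p = 0.00248) and lower at 10 months, and the difference passed (adjusted p = 1.74e-05).

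Spread between mice was compared between the genotypes in 3 ways. For each mouse, the scatter is the median over genes of its absolute log2 deviation from the mean of the other mice of its genotype. mThy1-α-synuclein replicates 1 to 5 had scatters of 0.168, 0.138, 0.122, 0.201 and 0.135, and wild-type replicates 1 to 5 had 0.187, 0.145, 0.145, 0.158 and 0.169. The most deviant mice were therefore mThy1-α-synuclein replicate 4 and wild-type replicate 1, which also had the lowest sample weights in limma-voom (0.582 and 0.5995), and replicate 3 of the transgenic mice was the most typical. The means were 0.153 and 0.161, a difference of -0.00784 (two-sided exact permutation test of the genotype labels, p = 0.659, smallest possible 0.00794). With mean squared deviations the difference was -0.0369 (exact permutation p = 0.167).

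Gene by gene, the SD of log2 values had quartiles of 0.111, 0.176 and 0.339 in mThy1-α-synuclein mice and 0.118, 0.186 and 0.363 in wild-type mice. Among 10863 genes with a mean of at least 100, the SD was larger in the transgenic mice in 4989 (45.9%). It was over 4 times larger in the transgenic mice for 105 genes and in the wild-type mice for 152. A moderated limma test of absolute deviations called 0 genes, with 1137 at an unadjusted p under 0.05, and deviations from the median gave 0 and 115. Simulated data showed that this test has almost no power with 5 mice a genotype, so that the 0 does not speak to any gene. The genes below are therefore described, with no test of their spread.

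**Figure D4:**
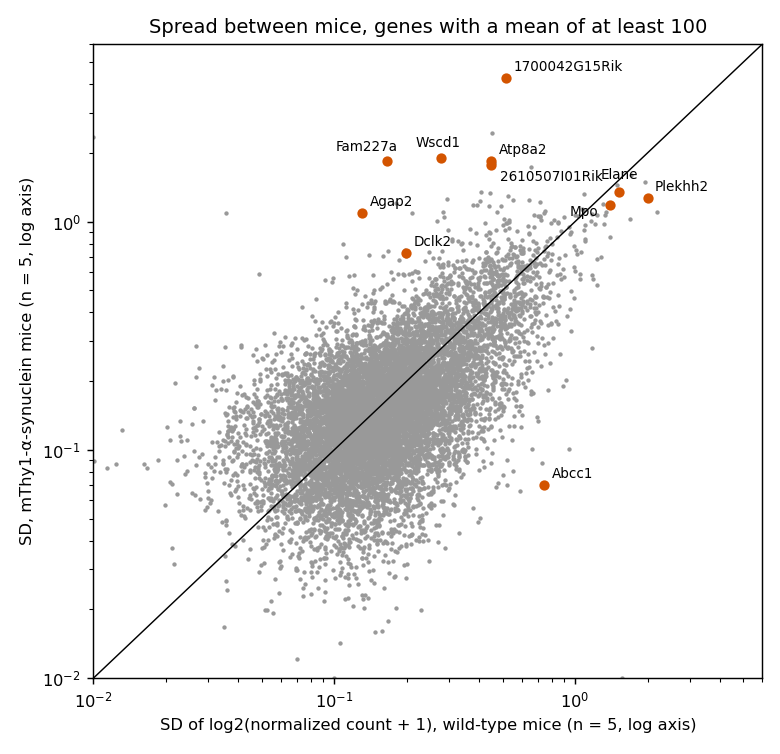
SD of log2(normalized count + 1) over the 5 wild-type mice (horizontal, log axis) against that over the 5 mThy1-α-synuclein mice (vertical, log axis), 1 grey point per gene with a mean of at least 100. The diagonal marks equal SDs, values under 0.01 are drawn at 0.01, and orange points are genes named in the text. Most genes lie along the diagonal, Wscd1, Fam227a, Atp8a2 and 2610507I01Rik lie above it and Abcc1 below it.

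Some genes divided the mice into a high and a low set with nothing between. A gap of at least 1.3 on the log2 scale, wider than the range on either side of it and with a high set averaging at least 50, was found in 24 genes, and this rule was chosen after the values were seen. In 8 of them the sets were the genotypes (Thy1, Chst2, Tspan8, Nxpe4, Gm15880, Ifi202b, Gnb4 and Skint3). In the remaining 16 the sets were not the genotypes, and 9 of these divided only the mThy1-α-synuclein mice, 2 only the wild-type mice and 5 both. Since mice within a genotype differ here, the group mean of such a gene describes no single mouse. Whether alleles of the 24 genes differed between the mice on the B6D2F1/J background was not tested.

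Some genes shared a set. mThy1-α-synuclein replicates 1 and 3 were low for 3 genes of chromosome 11. Wscd1, a sulfotransferase-like gene, had 20.46, 388, 52.4, 185 and 451 normalized counts in the transgenic mice and 427, 418, 320.4, 337 and 269.6 in the wild-type mice. The pseudogene Nlrp1c-ps had 16.01, 128, 24.6, 137 and 279 against 184, 362, 116, 157 and 122. The uncharacterized gene 2610507I01Rik had 90.7, 650.2, 126, 1147 and 1219 against 1181, 1477, 854, 1171 and 667. For each, the other 3 transgenic mice were inside or near the wild-type range. These genes span chr11:59199836-71789647 of mm10. The stretch was drawn from these 3 genes after their values were seen. Of the other 182 tested genes in it 24 (13.2%) had the same 2 mice as the lowest of the 10, against 628 of the other 13624 genes (4.61%), and they include Cd68, Gabarap and Eif4a1.

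mThy1-α-synuclein replicates 4 and 5 were the low pair for other genes. Atp8a2, a phospholipid flippase, had 2974, 4851, 3042, 297 and 428 against 4755, 2682, 2229.7, 2757 and 2227. Mia2, on chromosome 12, had 97.0, 72.6, 77.0, 6.82 and 14.0 against 93.2, 183, 106, 159 and 143. Dclk2, a doublecortin-like kinase, ran the other way, with 155, 157, 157, 415 and 371 against 214, 238, 263, 185 and 249.6. The pair was below every other mouse for Atp8a2 and Mia2 and above every other mouse for Dclk2. Replicates 3 and 5 were lowest for Agap2, a GTPase-activating protein, which had 425, 459.5, 102, 468 and 126 against 1075, 1046, 1145, 896 and 1009, so that its genotypes did not overlap either (adjusted p = 0.036). Replicates 1, 2 and 4 were high for Fam227a, with 378, 621, 82.4, 450.1 and 31.1 against 93.2, 78.8, 94.2, 80.6 and 71.9. The chemokine receptor gene Ccr6, which is inflammatory, had 8144, 795, 7416, 695 and 927 against 2805, 3159, 5795, 3579 and 5317, with transgenic replicates 1 and 3 above and the other 3 below every wild-type mouse. Different pairs of transgenic mice thus formed the low set for different genes.

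Wild-type mice were divided as well. Il2ra, the high-affinity IL-2 receptor subunit of regulatory T cells, had 29.4, 30.3, 19.3, 26.3 and 55.2 in transgenic mice and 42.4, 170.3, 28.3, 40.3 and 231 in wild-type mice, and Gbp2b, an interferon-induced GTPase, had 32.9, 24.7, 26.8, 42.9 and 44.1 against 33.9, 270.2, 40.5, 37.6 and 129. Wild-type replicates 2 and 5 were the high mice for both and also had the highest T and NK cell levels, 1.16 and 1.15. Cacna1a, a neuronal calcium channel, had 2851, 2965, 3234, 545 and 1966 against 292, 356, 401, 2824 and 436, with wild-type replicate 4 as the single high mouse of its genotype. Plekhh2 had 730.4, 609, 550.0, 128 and 126 against 41.3, 22.5, 331, 484 and 344. Pm20d1, an enzyme of N-acyl amino acids, lay between 37.1 and 44.8 in all transgenic mice and at 4.24, 4.22, 30.2, 37.6 and 4.15 in the wild-type mice, and Gnb1l lay between 101 and 110 against 69.9, 68.9, 108, 119.6 and 119.6. Both thus had an even group of transgenic mice beside a divided wild-type group, as did Abcc1.

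Among genes with the widest spread in wild-type mice were granule genes of immature neutrophils. Elane, neutrophil elastase, had 178, 35.1, 234.4, 58.5 and 321 against 122, 514, 1725, 185 and 662, and Mpo, myeloperoxidase, had 1052, 249.7, 1018, 414 and 1961 against 517, 1814, 6601, 968 and 2483. Wild-type replicate 3 was the highest mouse for both and had the highest neutrophil level (1.02). In mThy1-α-synuclein mice replicate 5 was highest for both and replicate 2 lowest.

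**Figure D5:**
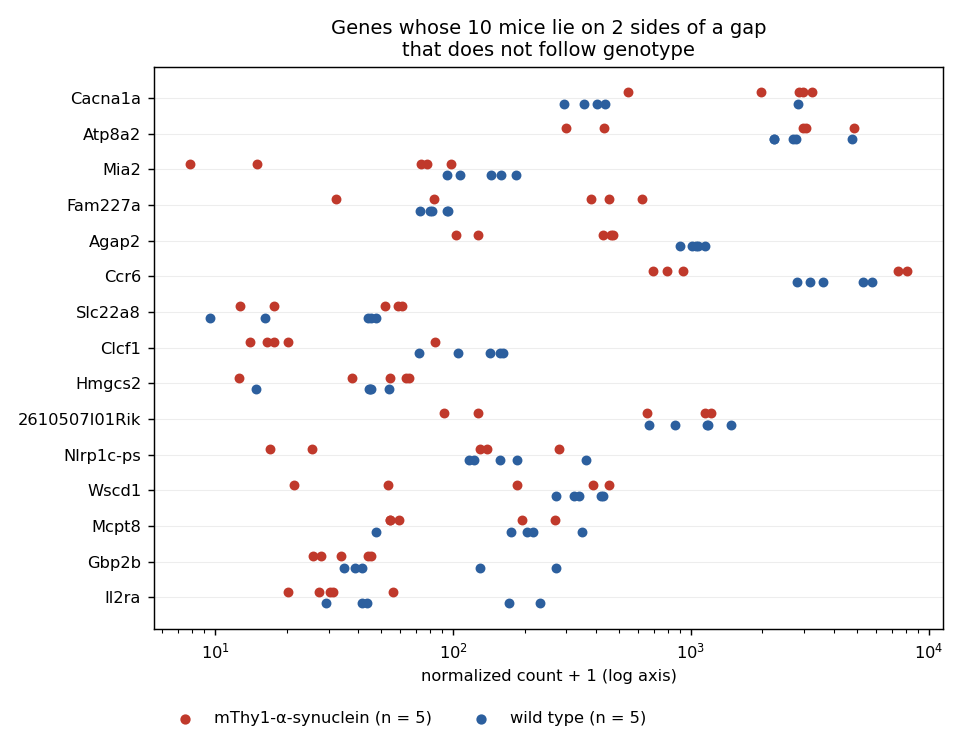
Normalized count + 1 (log axis) of each 10-month mouse for 15 of the 16 genes whose mice fall on 2 sides of a wide gap that does not follow genotype. Red points are mThy1-α-synuclein and blue points wild-type mice (n = 5 each). In Atp8a2, Mia2, Agap2, Wscd1, Nlrp1c-ps and 2610507I01Rik 2 red points stand alone on the low side, and in Il2ra and Gbp2b 2 blue points stand alone on the high side.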

How the data were processed

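Poly(A) RNA of microglia from 10 mice of 10 months, 5 mThy1-α-synuclein and 5 wild-type, was analysed, with 10 mice of 7 months only for the comparison between ages. Per the paper and the submitters' processing notes, the authors trimmed reads with Trim Galore 0.6.7, mapped them to mm10 with HISAT2 2.2.1, counted genes with featureCounts and used DESeq2 1.44.0. Strand and multi-mapping settings were not given in the sources used here. The deposited signal is the count of each gene divided by 1 size factor per mouse, estimated within an age. Whole reads were recovered from the values (100% whole within a tolerance of 0.05), although the step of mThy1-α-synuclein replicate 5 is too near 1 to tell. Groups came from the sample titles.

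The 13627 genes that reached a value of 10 in 5 or more of the 10 mice were tested with limma 3.58.1 (moderated test with trend and robust options, log2 of value + 1, genotype as the only term, R 4.3.3). Differences between ages used 1 fit of 20 mice. Scatter was compared by permuting the genotype labels over the finished scatter values in all 252 assignments (NumPy 2.4.6). Alternatives were other pseudocounts, filters and scalings, edgeR 4.0.16, DESeq2 1.42.0, limma-voom with sample weights, a replicate block and leaving out mice. Scripts were tested on simulated data. Gene positions came from GENCODE vM21. Members and gene lists were chosen with earlier results of these data known. Genes were named by a rule: up to 4 called members of each list by adjusted p, the 12 largest non-overlapping changes in each direction with a mean of at least 50 in the higher genotype (without Gm and Rik names and the inflammatory, ER stress and LXR lists), the 10 called genes of highest mean, the 10 smallest p of the spread test, the 10 largest SDs of log2 values per genotype among genes with a mean of at least 100, check and marker genes, and the 5 smallest interaction p. Further genes named beside them, heat shock members above all, were chosen after their values were seen, and some genes that the rule takes are not reported here. Intervals for counting error are small at 33404096 to 70240823 reads per mouse, and cover counting only.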

Additional observations from a re-analysis of the deposited data

Results flagged for a closer look

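In 170 groups of 5 mice, formed by the genes whose single mice are given and by list levels and scatters, the highest or lowest mouse was checked for a gap to the next mouse of more than 0.71 of the range, and 9 groups (5.29%) had such a mouse. The cutoff gives about 1 in 20 for independent groups of normal values. These groups share mice and include genes named for their spread, so that rate is not their background. Wild-type replicate 1 was high for Stip1 (8996 normalized counts), for Atp8a2 (4755) and for the level of the ER stress list (0.397). mThy1-α-synuclein replicate 4 was low for Chst1 (1070), Cacna1a (544.6) and 1700042G15Rik (0). Wild-type replicate 4 was high for Cacna1a (2824). mThy1-α-synuclein replicate 5 was low for Serpina1b (22.07), and wild-type replicate 4 was low for the level of the monocyte list (-0.3331).

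For 74 of the genes named in the text the genotype effect at 10 months differed from that at 7 months in the fit of all 20 mice (limma, adjusted p under 0.05), given here as the log2 difference at 10 months minus that at 7 months. It was positive for Ccr6 (5.569), Kcnj14 (4.921), Nxpe4 (4.141), Gm15880 (2.456), Cirbp (2.364), Tspan8 (2.318), Rbm3 (2.224), Thy1 (1.856), Kcnab3 (1.547), Zeb1 (1.382), Slc2a9 (1.314), Dync2h1 (1.221), Thbs2 (1.034), Hnrnpdl (0.7598), Kif21b (0.6761), Itpr3 (0.6723), Znf512b (0.6404), Srsf5 (0.6394), Eif5a2 (0.6226), Eif4b (0.569), Pabpc1 (0.5472), Apc (0.5298), Acox3 (0.4971), Tspan9 (0.483), Pip5k1c (0.4783), Epb4.1l2 (0.478), Sirt2 (0.4665), Slc6a6 (0.4382), Arsb (0.4309), Vti1a (0.4243), Hnrnpd (0.4229), Elmo1 (0.4077), Ykt6 (0.407), Pex7 (0.3876), Cyfip1 (0.3616) and Gclc (0.354). It was negative for Pde7b (-1.803), Mpzl3 (-1.768), Hsph1 (-1.533), Vcam1 (-1.208), P4ha1 (-1.205), Stip1 (-1.136), Bmp2 (-1.057), Chordc1 (-1.021), Tra2a (-0.8789), Ahsa2 (-0.8757), Fkbp4 (-0.8119), Slc16a3 (-0.7846), Hsp90b1 (-0.7701), Hspa8 (-0.7641), P2rx4 (-0.7387), Cacybp (-0.7165), Nrros (-0.7158), Slc15a4 (-0.6733), Hsp90ab1 (-0.6484), Slc2a1 (-0.6293), Calr (-0.6147), Srsf10 (-0.5922), Tspan5 (-0.5884), Dynll1 (-0.5868), Pdia3 (-0.5839), Hmox1 (-0.5732), Pfkl (-0.5731), Ahsa1 (-0.5025), Hnrnpc (-0.4942), Tspan14 (-0.4826), Hnrnpm (-0.4796), Ldha (-0.4634), Srsf1 (-0.4366), Ebp (-0.4222), Cct3 (-0.4074), Snap23 (-0.374), Ube2b (-0.3346) and Eed (-0.3237). The ages were handled separately, so age and handling cannot be told apart.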

How the results depend on the processing

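Of 1045 genes called between genotypes at 10 months, other pseudocounts, filters and scalings, edgeR and weighted limma-voom left the count within 1.5 times, from 926 to 1333. DESeq2 called 1695 genes and limma without trend and robust options 565. Without 1 mouse the count ranged from 497 to 1235. Replicate numbers did not pair the mice, since the correlation of same-numbered mice lay between -0.0505 and 0.0995 and 1 of 5 mThy1-α-synuclein mice correlated best with its own number, and a fit with the replicate number as a block called 916 genes, of which 40.1% were higher against 50.6% without it. Without mThy1-α-synuclein replicate 4 and wild-type replicate 1, a setting chosen after seeing the data, 873 genes were called and 58.6% were higher. The test of spread called 0 genes, and between 3 and 18 without 1 mouse. The difference between ages passed for 930 genes and for 622 to 1029 without 1 mouse. The difference in scatter per mouse (-0.00784) ranged from -0.0198 to 0.00787 without 1 mouse and changed sign without mThy1-α-synuclein replicate 2 (0.000495), 3 (0.00787) or 5 (0.00109), all within the spread between mice. The cause of these shifts was not tested. Of the called genes named in the text, 91 kept their call in all settings, 15 lost it only with a mouse left out, 95 in another setting and 0 changed direction. The replicate block ended 50 of these calls, limma without trend and robust options 79, edgeR 6 and DESeq2 0. DESeq2 called lower 13 heat shock genes, 11 glycolysis genes and 9 genes of the list of p53 targets and DNA damage genes. Low counts limit genes near 0 in a genotype, whose log2 difference moved with the setting, from -11.4 to -5.65 for Skint3, from 2.1 to 3.83 for Adamts17 and from 3.21 to 4.87 for Kcnj14. The number of mice, 5 a genotype, limits the statements on spread.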
